A study of Mus musculus with 4 samples.

Results

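Fibrillar collagens and the collagens that coat their fibrils were followed in smooth muscle cells and fibroblasts of the mouse ascending aorta. The 9 genes were Col1a1, Col1a2, Col3a1, Col5a1, Col5a2, Col5a3, Col11a1, Col12a1 and Col14a1, named as a set by their place in the fibril, and all 9 were among the 18108 genes common to the 3 count tables used. Cells were assigned by 2 marker genes that are no members of the set. A cell counted as a smooth muscle cell (SMC) with at least 5 UMIs (unique molecular identifiers, counted transcripts) of Myh11, the smooth muscle myosin heavy chain, and 0 of Pdgfra, a growth factor receptor of fibroblasts. It counted as a fibroblast with at least 1 UMI of Pdgfra and at most 2 of Myh11.

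Aortas came from male mice of the strain Mef2c-mTmG, in which a switchable fluorescent reporter (mTmG) marks cells by descent, with Mef2c named as its driver, and living cells were sorted on that lineage label before droplet capture with a 3′ kit. The groups were second heart field (SHF) cells at baseline, SHF cells after 3 days of angiotensin II (AngII) infusion, and CNC cells, a lineage name that the labels leave unexplained, after the same infusion. All groups thus share strain and sex, and the labels give no age and do not say whether animals were pooled. A CNC sample at baseline, named in the labels, was not analysed here, so AngII and baseline were compared within the SHF lineage only, and SHF and CNC under AngII only. The study asked how cells of second heart field origin and cells of other origins differ in their response to AngII. Each group was 1 library, so no difference has a replicate check, no test was made, and the 95% intervals given cover counting error alone.

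Type I collagen, built from the chains of Col1a1 and Col1a2, and type III, built from Col3a1 alone, form the bulk of the fibrils that limit stretch of the aortic wall. Type V chains (Col5a1, Col5a2, Col5a3) and the type XI chain of Col11a1 are minor components that co-assemble into fibrils and help to start them and set their diameter. Types XII and XIV (Col12a1, Col14a1) do not form fibrils themselves but bind along their surface. AngII is a peptide hormone that raises blood pressure and is used to provoke disease of the ascending aorta in mice. Variants of the human gene COL3A1 underlie vascular Ehlers-Danlos syndrome, in which arteries rupture.

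The libraries held 9412 to 11166 barcodes, of which 8374 (SHF baseline), 9299 (SHF AngII) and 10194 (CNC AngII) were kept as cells. The SMC gate took 2259, 4649 and 6385 of them and the fibroblast gate 3939, 2640 and 842, while 21.6% to 29.1% of cells met neither rule. Median depth was 12441 to 13450 UMIs in SMCs and 9534, 15485.5 and 12379.5 UMIs in fibroblasts. The gates matched their names: the 10 SMC markers, Myh11 among them, summed to 57752.3 to 65107.5 CPM (counts per 1000000 UMIs of the cells summed) in SMCs and 1311 to 4077 CPM in fibroblasts, and the 10 fibroblast markers, Pdgfra among them, to 665 to 1123 CPM in SMCs and 10989 to 37259 CPM in fibroblasts. Tagln, a contractile gene that the gates did not use, stood at 19098 to 23181 CPM in SMCs and 606 to 1965 CPM in fibroblasts, and Dcn, a fibroblast proteoglycan gene, at 20.3 to 311 and 4662 to 15528 CPM. Between 29 and 34 barcodes were shared by each pair of libraries. The baseline table lists 18760 genes with older names and each AngII table has 32285 genes, so a difference between AngII and baseline includes that difference in annotation, whereas the AngII tables share their list.

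In the mouse annotation of build GRCm38 (the build named mm10 in the submitters' processing notes) the 9 genes lie on 7 chromosomes. Col3a1 (chr1:45311538-45349706, forward strand) and Col5a2 (chr1:45374321-45503282, reverse strand) are neighbours whose 3′ ends face each other with 24614 bases between them. An exon of Col3a1 overlaps the miRNA gene Gm47302 on the same strand by 141 bases, and exons of Col5a1 overlap the transcripts 2810430I11Rik and Gm13372 on the opposite strand by 99 and 113 bases. Strand cannot tell apart the reads of the Col3a1 stretch. Whether counting used strand is not given in the sources used here, so it is not known whether reads of the Col5a1 stretches were told apart. Exons of the other 7 members overlapped 0 other genes.

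The 250 bases before the start site, from RefSeq on GRCm38.p6, are shown for 3 members with unlike behaviour in the values that follow: Col3a1, which stood lower in AngII SMCs than in baseline SMCs, Col5a1, which stood higher, and Col11a1, which was near 0 in baseline fibroblasts. The capitals mark matches, on either strand, to CCAAT (the CAAT box), to GGGCGG (the GC box) or to CAGAC (known from promoters bound by Smad proteins), and no match shares letters with another. The table held promoters of 5 of the 9 genes.

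Col3a1, chr1:45311288-45311537, forward strand: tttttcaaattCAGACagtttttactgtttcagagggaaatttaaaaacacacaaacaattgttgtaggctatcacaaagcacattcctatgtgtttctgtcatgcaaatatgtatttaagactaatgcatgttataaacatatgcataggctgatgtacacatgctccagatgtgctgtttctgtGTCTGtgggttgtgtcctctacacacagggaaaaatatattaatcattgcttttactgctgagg

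Col5a1, chr2:27886175-27886424, forward strand: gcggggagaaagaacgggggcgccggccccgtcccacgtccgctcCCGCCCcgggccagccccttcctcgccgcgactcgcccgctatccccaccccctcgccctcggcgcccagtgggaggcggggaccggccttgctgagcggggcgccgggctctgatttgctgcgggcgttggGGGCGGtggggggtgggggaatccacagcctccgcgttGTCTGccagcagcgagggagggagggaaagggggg

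Col11a1, chr3:114030290-114030539, forward strand: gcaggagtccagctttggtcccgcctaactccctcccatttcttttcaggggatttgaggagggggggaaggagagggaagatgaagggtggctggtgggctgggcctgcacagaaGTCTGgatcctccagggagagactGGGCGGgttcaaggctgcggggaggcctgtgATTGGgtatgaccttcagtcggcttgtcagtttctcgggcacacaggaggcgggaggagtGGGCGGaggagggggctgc

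The Col3a1 stretch was the most AT-rich of these, with 35.2% G and C against a median of 52.4% over 32841 promoters in the table, and it held 2 matches to CAGAC and 0 to the other motifs. Col5a1 (76.4% G and C) held 2 matches to GGGCGG and 1 to CAGAC. Col11a1 (62.4% G and C) held 1 match to CCAAT, 2 to GGGCGG and 1 to CAGAC. Of all promoters of this length in the table, 33.9% hold CCAAT, 32.8% hold GGGCGG and 42.2% hold CAGAC, so matches of this kind are common and are given as a description of the sequence.

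Fibroblasts carried more of their RNA in these genes than SMCs did. The 9 members made up 1.78%, 2.04% and 1.66% of fibroblast UMIs in SHF baseline, SHF AngII and CNC AngII, against 0.461%, 0.505% and 0.523% of SMC UMIs. Levels are given in that order of libraries throughout, as CPM of all UMIs of the gated cells. A 3′ kit counts a transcript once whatever its length, but other differences in counting between genes were not checked. Orders and proportions between genes are therefore those of counted UMIs. Col3a1 was the most abundant member in fibroblasts of both SHF libraries, at 6761, 7537 and 5230.3 CPM. Col1a2 followed at 5825, 6260.2 and 5566 CPM, which put it above Col3a1 in the CNC library, and Col1a1 came next at 3691, 4436 and 3803 CPM. Below this trio, fibroblast levels fell into 3 steps: Col14a1, Col5a2 and Col5a1 at 301 to 989 CPM, Col12a1 at 45.6 to 159 CPM, and Col5a3 and Col11a1 at 2.43 to 40.6 CPM.

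In SMCs the same trio led, in another order. Col1a2 stood at 1503.5, 1897 and 2201 CPM and Col3a1 at 1894, 1414 and 1212 CPM, so Col3a1 was the highest member at baseline and Col1a2 in both AngII libraries. Col1a1, the other type I chain, stood at 709, 1104.5 and 1138 CPM. Col5a2 (249.7, 432 and 488.5 CPM) and Col5a1 (91.7, 139.9 and 163 CPM) were the other members above 90 CPM in every SMC library. Col5a3, Col11a1 and Col12a1 stayed under 10 CPM in SMCs throughout.

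**Figure D1:**
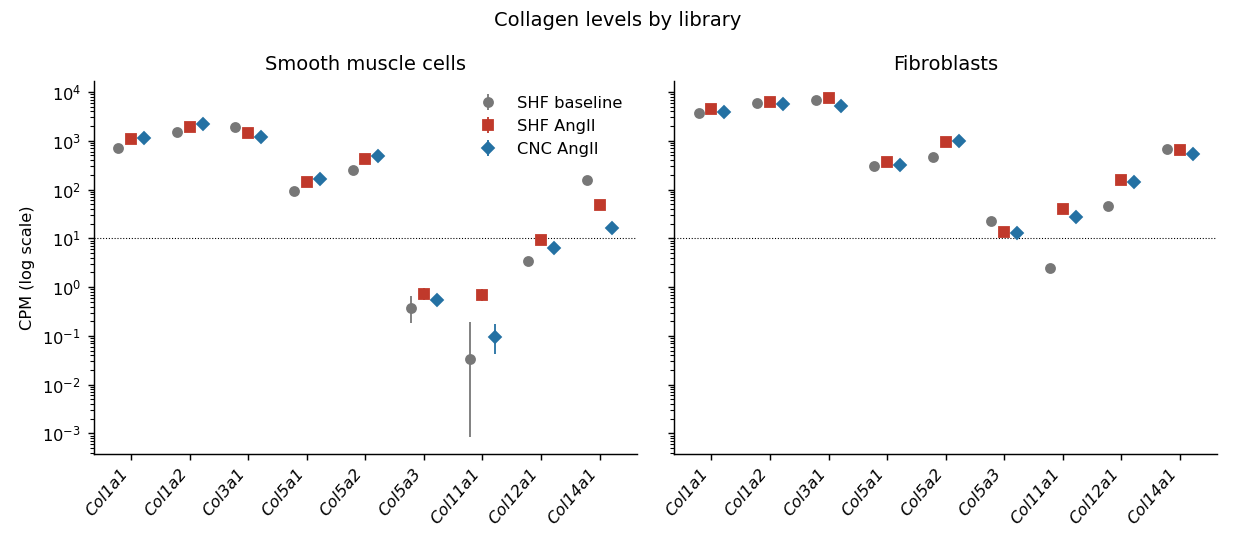
CPM of each of the 9 collagen genes (log axis) in SMCs and fibroblasts of SHF baseline, SHF AngII and CNC AngII, with 95% Poisson intervals that cover counting error alone. Fibroblast points lie above SMC points for each gene, with the widest gap in each library at Col11a1, which rests on 1, 49 and 9 UMIs in SMCs.

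As a share of the fibroblast level in the same library, the SMC level separated the members further. Col5a2 was the most evenly shared at baseline, with an SMC level of 53.5%, 45.5% and 49.4% of that in fibroblasts. Col1a1 stood at 19.2%, 24.9% and 29.9%, Col1a2 at 25.8%, 30.3% and 39.6%, and Col5a1 at 30.4%, 37.7% and 51.4%, each lowest in SHF baseline and highest in CNC AngII. Col14a1 ran the other way, at 23.4%, 7.81% and 3.00%. All of these members, with Col3a1 and Col12a1, were more than 1.5-fold higher in fibroblasts than in SMCs of the same library: 8 of the 8 genes that reached a mean of 10 CPM, where 36.6%, 37.9% and 36.6% of all genes past that minimum differed by as much in either direction and 24.6%, 22.6% and 21.7% were higher in fibroblasts. That count holds Col12a1 in each library, Col5a3 at baseline and Col11a1 under AngII, which reached the minimum through the fibroblasts alone, so it is no support; without them the 6 genes above 10 CPM in both cell classes were each higher in fibroblasts. Under the scaling by trimmed means (TMM), which moved the median log2 ratio of all genes from 0.19, 0.11 and 0.11 to -0.06, -0.09 and -0.12 and the share of all genes higher in fibroblasts to 17.1%, 16.4% and 15.3%, the count was also 8 in each library.

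**Figure D2:**
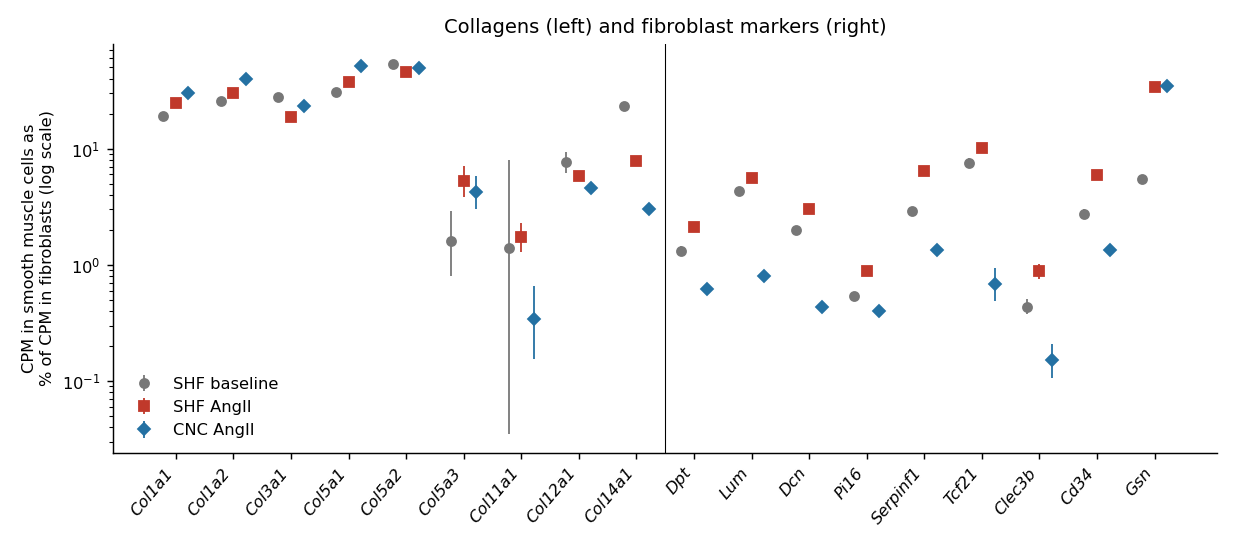
SMC level as a percentage of the fibroblast level in the same library for the collagens and for fibroblast markers (percent, log axis). Col1a1, Col1a2 and Col5a1 step upward from SHF baseline to CNC AngII, whereas Col14a1 steps down from 23.4% to 3.00%, as do Dcn, Lum and Dpt between the SHF and CNC libraries under AngII.

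In SMCs of the SHF lineage, AngII and baseline libraries differed gene by gene. The median mitochondrial share of UMIs also differed between these libraries, at 7.36% in baseline and 5.44% in AngII SMCs. Of the 6 members past a mean of 10 CPM, 3 were more than 1.5-fold higher under AngII (Col1a1, Col5a1, Col5a2), 1 was lower (Col14a1) and 2 lay within that range (Col1a2, Col3a1), beside 24.4% of 7000 genes past 1.5-fold, 8.76% higher and 15.6% lower. The median log2 ratio was 0.47 over these 6 members and -0.10 over all genes past the minimum. Scaling by TMM moved the latter to 0.07 and every member's ratio upward with it, put 14.2% of all genes higher and 8.65% lower, and gave 3 members higher and 1 lower as well.

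Among the type I chains, Col1a1 was 1.56-fold higher with AngII (log2 ratio 0.64, interval 0.62 to 0.66) and Col1a2 1.26-fold higher (0.34, 0.32 to 0.35). The 2 chains thus did not keep their proportion, and Col1a2 stood at 2.12, 1.72 and 1.94 UMIs per UMI of Col1a1 over the 3 libraries. Col3a1 had the opposite sign, at 0.747 times its baseline level (-0.42, -0.44 to -0.41). Col5a2 was 1.73-fold higher (0.79, 0.75 to 0.83) and Col5a1 1.53-fold higher (0.60, 0.55 to 0.67). The Col1a1 and Col5a1 ratios lie close to the 1.5-fold line, with Col1a1 at 0.31 under a stricter cell filter (cells with 1000 genes or more and no more than 5% of UMIs mitochondrial, which left 120 of the 2259 baseline SMCs) and Col5a1 at 0.43 when each cell was thinned to 5000 UMIs. Of the members under the minimum, Col12a1 stood at 3.49, 9.26 and 6.46 CPM and Col5a3 at 0.372, 0.720 and 0.553 CPM. Col11a1 had 1 UMI in baseline SMCs, 49 in SHF AngII and 9 in CNC AngII, a 20.8-fold ratio of AngII to baseline whose log2 interval runs from 1.84 to 9.71.

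**Figure D3:**
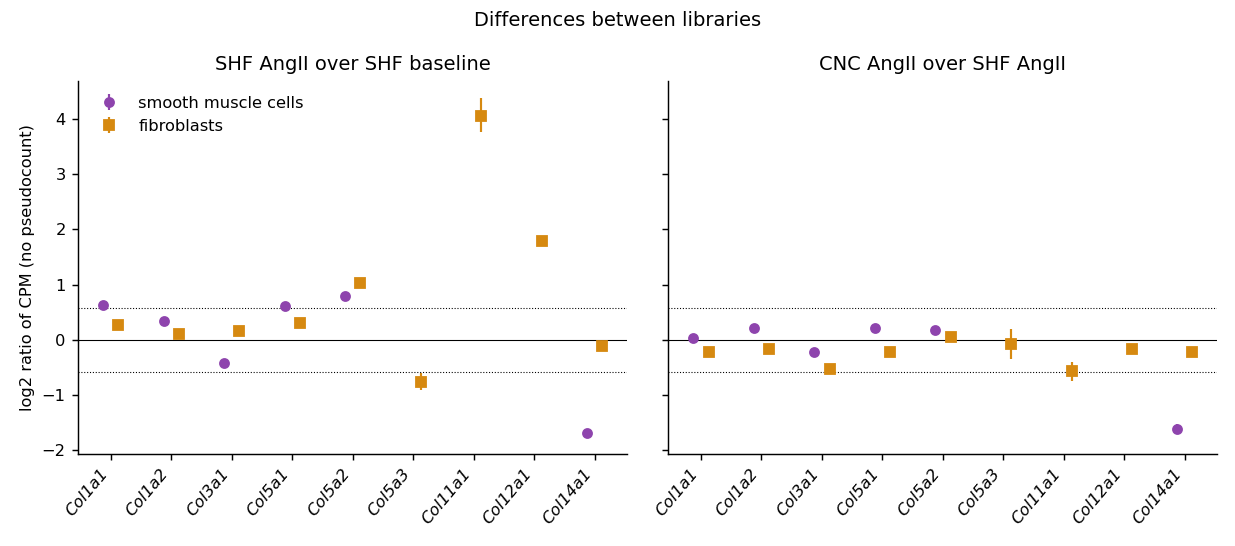
Log2 ratio of CPM (no CPM added, unlike the log2 ratios in the text) for each member past the minimum, in SMCs and fibroblasts. The comparisons are AngII over baseline within SHF and CNC over SHF under AngII, with 95% counting intervals and lines at 1.5-fold. Col3a1 lies below 0 in SMCs and above 0 in fibroblasts for AngII over baseline (at -0.01 there by the mean of per-cell shares), and Col14a1 in SMCs is below -1.5 in both comparisons, which share the SHF AngII library.

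The change in the Col3a1 proportion could be followed within single SMCs. In cells with at least 10 UMIs of Col1a1 and Col3a1 together (2147, 3880 and 5695 SMCs), Col3a1 held a median of 73.9%, 57.1% and 52.5% of that sum. It held the majority in 94.4% of those cells at SHF baseline, in 68.6% after AngII in the same lineage and in 54.9% of CNC cells. Summed over cells, there were 2.67, 1.28 and 1.07 UMIs of Col3a1 per UMI of Col1a1, with ranges of 2.48 to 2.81, 1.197 to 1.35 and 0.987 to 1.14 over the alternative ways of processing, so the baseline range did not meet the others. This proportion does not depend on how libraries are scaled. In fibroblasts the same proportion was 1.83, 1.70 and 1.38, and the per-cell medians were 65.3%, 63.8% and 59.1%. Baseline SMCs were thus richer in Col3a1 relative to Col1a1 than fibroblasts of the same library, and AngII SMCs poorer.

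**Figure D4:**
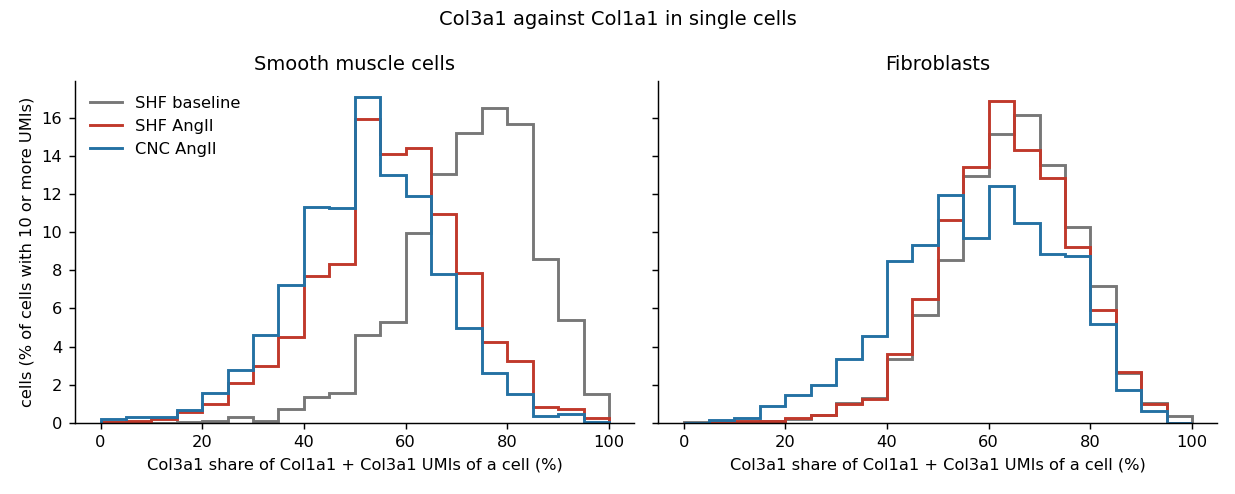
Distribution over cells of the share of Col3a1 in the summed UMIs of Col1a1 and Col3a1 (percent), in cells with at least 10 such UMIs, for SMCs and fibroblasts of each library. The SMC distribution centres on 73.9% at baseline, on 57.1% after AngII in SHF cells and on 52.5% in CNC cells, while the fibroblast medians lie between 59.1% and 65.3%.

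Col14a1 showed the widest differences between SMC libraries of any member past the minimum. It stood at 159, 49.4 and 16.2 CPM in SHF baseline, SHF AngII and CNC AngII, with a UMI in 68.6%, 34.9% and 15.3% of SMCs and, after thinning to 5000 UMIs, in 45.6%, 18.6% and 7.33%. AngII SMCs were thus at 0.310 times the baseline level (log2 ratio -1.67, -1.76 to -1.63, and -2.46 under the stricter cell filter), and CNC SMCs at 0.328 times the SHF level under AngII (-1.55, -1.70 to -1.52). The CNC AngII level was close to that in macrophages of the same library, 15.4 CPM with a UMI in 13.1% of cells. There were 1171 such macrophages, with a median of 11333 UMIs, against 13450 in SMCs. Col1a1 stood at 24.96 CPM in these macrophages, against 1137.6 CPM in SMCs and 3803.1 CPM in fibroblasts of that library. Whether the Col14a1 UMIs of the macrophages were free RNA was not tested. The 24 endothelial cells of that library held 0 UMIs of Col14a1 (interval up to 25.38 CPM). The SHF libraries held 5 and 9 macrophages, too few for such a comparison. They also held 47 and 24 endothelial cells, in which Col14a1 stood at 26.7 and 26.1 CPM.

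Most fibroblast markers were also lower in the CNC library, though not all. In SMCs Dcn (decorin) stood at 310.9, 173.5 and 20.3 CPM, Lum (lumican) at 85.1, 75.3 and 8.83 CPM, Dpt at 15.5, 10.7 and 2.76 CPM and Tcf21 at 17.8, 13.7 and 0.428 CPM. Pi16, Clec3b and Cd34 were likewise highest at baseline and lowest in CNC AngII. Serpinf1 went from 48.3 to 63.1 and 13.0 CPM, higher with AngII than at baseline, and Gsn from 604 to 524 and 611 CPM, highest in CNC. The whole list of 10 fibroblast markers summed to 1123, 889 and 665 CPM, with 8, 8 and 3 markers at 10 CPM or more and Pdgfra at 0 by the gate. Cardiomyocyte markers summed to 758, 483 and 55.3 CPM in the same cells. The part of these transcripts in the Col14a1 difference was not tested beyond the values that follow. Fibroblasts were 47.0%, 28.4% and 8.26% of kept cells. In 1 setting, 5% of the UMIs of a gate were subtracted as free RNA with the profile of the whole library. The Col14a1 log2 ratio in SMCs was then -1.96 for AngII over baseline and -1.44 for CNC over SHF. In the 1000, 2676 and 5552 SMCs without a UMI of Dcn, Lum or Dpt, a selection chosen after seeing the data, the Col14a1 log2 ratio was -1.88 for AngII over baseline and -1.16 for CNC over SHF, and that of Col3a1 for AngII over baseline was -0.42. Across SMCs, the non-members whose counts ran most closely with Col14a1 were Dcn, Lum and Cst3, with correlations averaged over the libraries of 0.322, 0.289 and 0.256.

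In fibroblasts of the SHF lineage, the members past 1.5-fold between AngII and baseline were minor ones, and the median mitochondrial share of UMIs was 4.09% at baseline and 2.82% with AngII. Col5a2, Col11a1 and Col12a1 were more than 1.5-fold higher under AngII, Col5a3 was lower and 5 members lay within that range, beside 38.2% of 7693 genes past 1.5-fold, 10.5% higher and 27.6% lower. Col11a1 passed the minimum of 10 CPM through the AngII library alone. Without it, Col5a2 and Col12a1 were higher and Col5a3 lower, a share near the 38.2% of all genes. The count is therefore not read as a result about the set. The median log2 ratio over the 9 members, Col11a1 included, was 0.27, against -0.21 over all genes past the minimum. Scaling by TMM moved the all-gene median to 0.06, and the share of genes higher to 20.8% and lower to 15.1%. It put 3 members higher, Col11a1 among them, and 0 lower, with Col5a3 at -0.45.

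The abundant fibril formers stayed within 1.5-fold here. Col1a1 was 1.202-fold, Col1a2 1.07-fold and Col3a1 1.11-fold higher with AngII (log2 ratios 0.27, 0.10 and 0.16), and the values were 0.54, 0.38 and 0.44 with TMM scaling and 0.07, -0.09 and -0.01 by the mean of per-cell shares, so the direction of Col1a2 and Col3a1 depends on the processing. Col5a1 was 1.23-fold higher. Col5a2 was 2.03-fold higher, from 467 to 949.8 CPM (log2 ratio 1.02, 0.999 to 1.05), and stood at 989 CPM in CNC AngII. The type V chains thus left their proportion, with 1.55, 2.56 and 3.12 UMIs of Col5a2 per UMI of Col5a1 in fibroblasts and 2.72, 3.09 and 3.00 in SMCs. The rare chain Col5a3 went from 23.1 to 13.7 CPM (-0.71, with an interval of -0.91 to -0.61 before 1 CPM is added to each side) and stood at 13.0 CPM in CNC AngII.

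Col11a1 had the highest ratio of all members. It went from 2.43 CPM at SHF baseline (92 UMIs) to 40.6 CPM in SHF AngII and stood at 27.3 CPM in CNC AngII. The difference between AngII and baseline is 16.7-fold as counted, and its log2 ratio is 3.60 with 1 CPM added to each side and 2.03 with 10 CPM added. A UMI was found in 1.60%, 18.4% and 13.4% of fibroblasts, and after thinning in 0.776%, 9.74% and 8.58%, against 0.256% of macrophages in CNC AngII. These transcripts sat in few cells. The 10% of fibroblasts with the most Col11a1 UMIs held 86.4% of its UMIs in SHF AngII and 90.7% in CNC AngII. For Col1a1, with cells ranked by its own UMIs, the values were 34.1% and 33.1%. Ranked in the same way, the sparse Col5a3 stood at 71.3% and 81.2% and Col12a1 at 54.1% and 62.8%. Cells were ranked by UMIs as counted, so the depth of a cell and the sparseness of a gene are part of these shares. Fibroblasts in cycle, with UMIs of at least 2 cycling genes, numbered 12, 502 and 151; Col11a1 stood at 51.7 CPM in them and 36.9 CPM in the rest in SHF AngII, and at 51.9 and 19.03 CPM in CNC AngII. The cycling cells were deeper than the rest, with medians of 21606.5 and 14462.5 UMIs in SHF AngII and 18222 and 11262 in CNC AngII. Without the cycling cells, a setting chosen after seeing the data, the Col11a1 log2 ratio of AngII to baseline was 3.47, against 3.60 with them.

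Of the fibril-surface collagens, Col12a1 went from 45.6 to 159 CPM (3.48-fold, log2 ratio 1.78, 1.72 to 1.87) and stood at 142 CPM in CNC AngII. It was detected in 18.9%, 55.9% and 46.1% of fibroblasts, and in 13.4%, 33.3% and 30.0% at 5000 UMIs, against 0.342% of macrophages in CNC AngII. Col14a1 stood at 682, 632 and 539 CPM, a log2 ratio of -0.11 that became 0.17 with TMM scaling. The 2 surface collagens therefore moved apart in fibroblasts, from 15.0 UMIs of Col14a1 per UMI of Col12a1 at baseline to 3.98 in SHF AngII and 3.80 in CNC AngII. SMC markers summed to 1311, 4077 and 3975 CPM in the fibroblast gate and cycling genes to 30.3, 515 and 539.5 CPM, and the part of the SMC transcripts in these differences was not tested. Without the fibroblasts in cycle, a selection chosen after seeing the data, the AngII to baseline log2 ratio was 3.47 for Col11a1, 1.76 for Col12a1, 1.02 for Col5a2, -0.57 for Col5a3 and -0.02 for Col14a1.

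Several members differed between fibroblasts with and without a UMI of Cthrc1, which encodes a secreted glycoprotein known from fibroblasts of injured tissue and is the non-member whose counts ran most closely with Col12a1 across fibroblasts (mean correlation 0.390). Cells with a Cthrc1 UMI made up 12.1%, 62.4% and 55.8% of fibroblasts, and 8.81%, 51.9% and 46.9% after thinning, against 1.24%, 7.27% and 2.40% of SMCs. They were deeper than the others, with medians of 12112.5 and 9162 UMIs at baseline, 19231 and 10656.5 in SHF AngII, and 15157.5 and 8765.5 in CNC AngII. Col12a1 stood at 103 CPM with and 35.0 without Cthrc1 at baseline, 195 and 52.8 in SHF AngII, and 178 and 65.9 in CNC AngII. For Col12a1 this division restates the correlation with Cthrc1 in the same cells and is no second result. Col11a1 stood at 50.8 and 11.2 CPM in SHF AngII and at 34.0 and 13.5 in CNC AngII. For Col1a1 the sides differed under AngII (4867.5 and 3184 CPM in SHF, 4222 and 2931 in CNC) and lay close together at baseline (3486 and 3729.6 CPM).

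Within each side, the AngII and baseline libraries can be set side by side, but the sides are not the same cells in both: detection of Cthrc1 itself differed between the libraries and depends on depth, so the values are a description of cells sorted by that UMI. In fibroblasts with Cthrc1 the log2 ratio was 0.48 for Col1a1, 0.24 for Col1a2 and 0.45 for Col3a1. In those without it, the values were -0.23, -0.35 and -0.31. On each side Col12a1 had a smaller ratio than in all fibroblasts (0.92 with and 0.58 without Cthrc1, against 1.78), as did Col11a1 (2.99 and 2.10, against 3.60) and Col5a2 (0.91 and 0.52, against 1.02). Col14a1 was lower under AngII on both sides (-0.57 and -0.25).

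**Figure D5:**
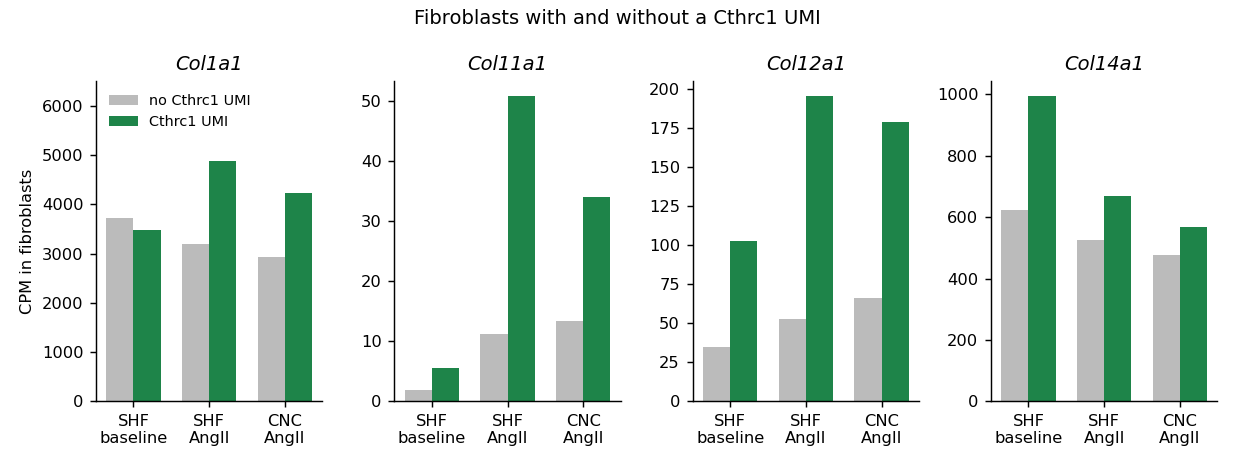
CPM of collagens of the set, among them Col1a1, Col11a1 and Col12a1, in fibroblasts with and without a Cthrc1 UMI in each library. Col12a1 and Col11a1 are higher in the cells with Cthrc1 in every library, whereas Col1a1 is higher in them under AngII and not at baseline.

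Under AngII, SMCs of the CNC and SHF libraries differed little in these genes apart from Col14a1. Of the 6 members past the minimum, 1 was past 1.5-fold (Col14a1, lower in CNC), beside 1.94% of 6765 genes past it in either direction, 0.946% higher and 0.99% lower. The log2 ratio of CNC to SHF was 0.04 for Col1a1, 0.21 for Col1a2, -0.22 for Col3a1, 0.22 for Col5a1 and 0.18 for Col5a2, and that of Col1a1 was -0.09 under the stricter cell filter. Macrophage markers summed to 411 CPM in CNC AngII SMCs and 1.56 CPM in SHF AngII SMCs, and their part in these ratios was not tested separately. This comparison uses the same SHF AngII library as the comparison with baseline, so the 2 sets of ratios are not independent.

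In fibroblasts, 0 of the 9 members were past 1.5-fold between CNC and SHF under AngII, beside 2.31% of 7215 genes, 1.25% higher and 1.07% lower. Col3a1 was lower in CNC at 0.694 times the SHF level (log2 ratio -0.53, -0.54 to -0.51), from 7537 to 5230.3 CPM, and it lay closest to the line together with Col11a1 (-0.56, -0.75 to -0.40). Col11a1 moved from -0.16 when cells were thinned to -0.92 without cycling cells. Col1a1 (-0.22), Col1a2 (-0.17), Col5a1 (-0.22), Col12a1 (-0.16) and Col14a1 (-0.23) were slightly lower in CNC, with Col12a1 at 0.01 after thinning. Col5a2 (0.06) and Col5a3 (-0.07) lay near 0 and changed sign under at least 1 alternative. The CNC fibroblasts were the smallest group, with 842 cells.

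Other divisions of the gates separated the members by gene. Fibroblasts with a UMI of Pi16, a marker of adventitial fibroblasts, were 86.0%, 89.96% and 84.9% of the gate, and Col14a1 was higher in them in each library (log2 ratio to those without 0.69, 0.39 and 0.60), as was Col12a1 (0.996, 0.54 and 0.38). Col3a1 was close in both at baseline (0.09) and higher with Pi16 under AngII (0.54 and 0.68), whereas Col1a1 was lower with Pi16 at baseline (-0.31) and nearly level under AngII (0.08 and 0.04). Cells with and without Pi16 had median depths of 9613 and 9109.5 UMIs at baseline. Under AngII the medians were 15880 and 10981 in SHF and 12867 and 9722 in CNC. The part of depth in these differences was not tested. Fibroblasts with a UMI of Comp or Chad, cartilage matrix genes, were 11.1%, 25.2% and 35.8% of the gate, and at baseline Col11a1 stood at 9.54 CPM in them and 1.44 CPM in the rest, against 44.5 and 39.1 CPM in SHF AngII and 34.6 and 22.5 CPM in CNC AngII. Their median depth and that of the rest were 9821 and 9494 UMIs at baseline, 18524 and 14857 in SHF AngII, and 14352 and 11137 in CNC AngII.

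SMCs with at least 5 UMIs of Spp1 (osteopontin) numbered 1, 156 and 537, and were deeper than SMCs with none (medians of 23126 and 12700.5 UMIs in SHF AngII). Under AngII they held more Col1a1 (1530.1 against 1040.5 CPM in SHF, 1421 against 1065 in CNC) and more Col5a1 (224 against 129.5, and 209 against 149 CPM). Col14a1 was lower in them, at 28.4 against 51.9 CPM in SHF AngII and 11.6 against 17.6 CPM in CNC AngII. Col3a1 differed less, with log2 ratios of 0.27 and 0.09.

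Genes that modify, process and cross-link collagen were compared as lists beside the members. For AngII over baseline their counts stand beside 8.76% of all genes higher and 15.6% lower in SMCs (14.2% and 8.65% with TMM scaling), and 10.5% higher and 27.6% lower in fibroblasts (20.8% and 15.1%). Of the 20 enzymes and chaperones of the endoplasmic reticulum that passed the minimum in SMCs, 10 were more than 1.5-fold higher with AngII and 0 lower, and the list's median log2 ratio was 0.57 against -0.10 over all genes. Fkbp10, a chaperone of procollagen, went from 43.3 to 137 CPM (1.64), and P3h2 (1.11), a prolyl hydroxylase, Plod1 (0.99), a lysyl hydroxylase, and P3h4 (0.97) followed. In fibroblasts 10 of 19 were higher and 0 lower, with a median of 0.67 against -0.21, led by Fkbp10 (1.94), P4ha2 (1.28), Plod2 (1.24) and Colgalt1 (1.2002). The count in SMCs lay between 4 and 13 over the alternatives and that in fibroblasts between 7 and 13.

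Of 8 genes for propeptide removal and cross-linking, 6 were higher and 0 lower in AngII SMCs (all genes: 8.76% and 15.6%), with a median of 0.77, and the higher count lay between 2 and 8 over the alternatives. Lox, the lysyl oxidase that starts cross-linking, stood at 194 CPM at baseline and 369 CPM with AngII (0.93), with Loxl2 at 1.16, Bmp1, the C-proteinase, at 0.82 and Loxl3 at 0.79. In fibroblasts 3 of 8 were higher and 2 lower (all genes: 10.5% and 27.6%), with a median of 0.14. Lox went from 246 to 1178 CPM (2.25) and Loxl3 was at 1.91. Pcolce2 (-1.42) and Adamts2 (-0.63), which take part in removal of the propeptides, were lower.

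Proteins that organise fibrils were divided. In SMCs 5 of 17 were higher with AngII and 5 lower (all genes: 8.76% and 15.6%; median -0.18), with Fbln2 at 2.64 and Ogn, Abi3bp and Tnxb at -2.11, -1.59 and -1.58. In fibroblasts 4 of 18 were higher and 9 lower (all genes: 10.5% and 27.6%, or 20.8% and 15.1% with TMM scaling; median -0.66), with Postn at 1.60 and Dcn, Fmod and Fbln1 at -1.43, -1.40 and -1.26. Among receptors, Itga1, a chain of a collagen-binding integrin, was the single gene of 5 past 1.5-fold in SMCs (1.53), and in fibroblasts Itga1 (2.46) was higher and Ddr2 (-1.45), a collagen-binding kinase, lower of 6; the medians were 0.28 and 0.17.

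Of the genes for collagen breakdown and its inhibitors, 5 of 7 were higher and 1 lower in AngII SMCs (all genes: 8.76% and 15.6%; median 0.81). In fibroblasts 3 of 8 were higher and 2 lower (median -0.03), and the lower ones are close to the 27.6% of all genes that were lower. Timp1, an inhibitor of metalloproteinases, went from 23.3 to 277 CPM in SMCs (3.52) and from 202 to 3267 CPM in fibroblasts (4.01). Mmp3, a metalloproteinase, was at 1.80 and 1.41, Ctsk at 1.18 and Timp2 at 0.81 in SMCs, and Mmp14 at 0.83 and Mmp2 at -1.29 in fibroblasts. Collagens outside the set were split as well, with 4 of 11 higher and 3 lower in SMCs (median 0.35; Col6a3 1.25, Col15a1 1.06, Col4a5 -0.88, Col4a6 -0.77). In fibroblasts 3 of 15 were higher and 8 lower (median -0.65), among them the basement membrane chains Col4a3 (-2.76) and Col4a4 (-2.02), with Col8a1 at 1.97 and Col15a1 at -1.74.

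Between CNC and SHF under AngII these lists differed in few genes, beside 0.946% of all genes higher and 0.99% lower in SMCs and 1.25% and 1.07% in fibroblasts. In SMCs 0 of 20 endoplasmic reticulum genes were past 1.5-fold, 1 of 8 processing genes was higher (Loxl3, 0.60) and 2 lower (Pcolce, -1.08, and Loxl2, -0.75). The fibril organisers held 5 lower genes of 15 (all genes: 0.99% lower), led by Fbln1 (-3.17), Dcn (-3.03), Lum (-2.96) and Abi3bp (-1.56), of which Dcn and Lum also count among the fibroblast markers. Mmp3 (-0.998) and Col4a6 (-0.71) were the single genes past 1.5-fold among 7 breakdown genes and 10 other collagens, and 0 of 5 receptors were. In fibroblasts Comp (1.02), Timp3 (0.71), Col18a1 (0.77) and Col15a1 (0.70) were higher in CNC, and P4ha3 (-0.67), Abi3bp (-0.72) and Mmp3 (-0.66) lower, with 0 of 8 processing genes and 0 of 6 receptors past the line.

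Across cells of 1 library, which share its depth and preparation, counts of the type I chains ran together: Col1a1 with Col1a2 at a correlation of 0.819, 0.859 and 0.854 in fibroblasts (3939, 2640 and 842 cells) and 0.540, 0.728 and 0.700 in SMCs (2259, 4649 and 6385 cells). Col1a1 with Col5a2 in SMCs stood at 0.284, 0.584 and 0.549. The non-member whose counts ran most closely with Col1a1, Col1a2, Col3a1, Col5a1 and Col5a2 in fibroblasts was Sparc, a collagen-binding matricellular protein, with mean correlations of 0.652, 0.665, 0.577, 0.401 and 0.434 over the libraries. Serpinh1, the collagen chaperone HSP47, was among the 3 closest for each of these 5 genes (0.467 with Col1a1). Rcn3 (0.402 with Col1a1), Adamts2 (0.406 with Col3a1), Fstl1 (0.332 with Col5a1) and Lox (0.409 with Col1a2 and 0.410 with Col5a2) filled the other places.

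In SMCs Sparc and Eln, the elastin gene, were the closest pair for each of Col1a1, Col1a2, Col3a1, Col5a1 and Col5a2, with Sparc at 0.620 and Eln at 0.555 for Col1a1. Timp2 was next for Col1a1 (0.426) and Col3a1 (0.340), Lox for Col1a2 (0.432) and Col5a2 (0.367), and Col6a3 for Col5a1 (0.288). The surface collagens had other neighbours in fibroblasts. Those of Col12a1 were Cthrc1, Fbln2 (0.372) and Anxa3 (0.366), and those of Col14a1 were C3, Nid1 and Fndc1 (0.396, 0.389 and 0.386). For Col12a1 in SMCs the highest values, for Fbln2, Mfap5 and Ccn5, were at most 0.096, too weak to describe a pattern in counts this sparse.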

How the data were processed

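The deposited tables hold raw UMI counts per gene and cell barcode, made by the authors with no normalisation. The submitters' processing notes name fastp, STAR 2.5, HTSeq 0.6.1 and mm10 without their roles. Baseline gene names were matched to the AngII tables directly or, for 514 genes, through a synonym; 13 repeated names were left out, and the common genes held 99.5% to 99.8% of UMIs. Barcodes with fewer than 500 genes or over 10% mitochondrial UMIs were dropped; 205, 191 and 277 doublets marked by Scrublet (scanpy 1.11.5) were removed. UMIs were summed per gate and library, scaled to CPM of all UMIs of those cells, and compared as log2((CPM + 1)/(CPM + 1)) among genes with a mean of at least 10 CPM, with more than 1.5-fold called a difference. Intervals are exact Poisson (CPM), conditional binomial (ratios, no CPM added) and Clopper-Pearson (shares) at 95%. Thinning drew 5000 UMIs per cell, leaving out shallower cells (45 to 82 SMCs, 73 to 717 fibroblasts). TMM factors came from edgeR 4.0.16.

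Correlations used log(1 + counts per 10000). Named genes are the 9 members, the 3 non-members most correlated with each member of at least 50 CPM in fibroblasts, and up to 4 genes per list and comparison with the largest ratios among those past the minimum. Members, lists, subsets and rules were chosen with earlier results of these data known. The ratio procedure was tested on simulated data.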

Additional observations from a re-analysis of the deposited data

Results flagged for a closer look

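Col3a1 had opposite signs in the 2 cell classes of the SHF lineage: the log2 ratio of AngII to baseline was -0.42 in SMCs and 0.16 in fibroblasts. The ratio of CNC to SHF under AngII also had opposite signs for 3 members. It was 0.0425 in SMCs and -0.22 in fibroblasts for Col1a1, 0.21 and -0.17 for Col1a2, and 0.22 and -0.22 for Col5a1. In each case 1 library stands for each group, so the difference between cell classes was not tested. The Col3a1 value in fibroblasts was -0.01 by the mean of per-cell shares, and the Col1a1 value in SMCs was -0.09 under the stricter cell filter, so both pairs then had the same sign.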

How the results depend on the processing

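No paired analysis was possible because each group is 1 library and the labels carry no replicate numbers. Over 750 alternative values of 54 member ratios, the side of the 1.5-fold line held throughout for 49 and changed for 5: Col1a1 in AngII over baseline SMCs (0.52 with thinned cells, 0.50 by the mean of per-cell shares, 0.31 under the stricter cell filter, which left 120 baseline SMCs), Col5a1 there (0.42 to 0.78), Col3a1 there (-0.74 under the stricter filter, otherwise within the line), Col5a3 in fibroblasts (-0.45 with TMM scaling, -0.48 with 10 CPM added, -0.57 without cycling cells) and Col11a1 between CNC and SHF fibroblasts (-0.59 with doublets kept, -0.92 without cycling cells). Of the 750 values, 398 lay outside the counting interval of the main ratio and 352 within it. The ratios that changed sides all compare libraries, and all but Col11a1 compare AngII with baseline. The 49 that held include every ratio of fibroblasts over SMCs past the minimum. The number of members past 1.5-fold was within 1.5 times its value in 104 of 111 alternatives. In SMCs, AngII over baseline, it was 2 with thinned cells and 2 by the mean of per-cell shares, against 4. In fibroblasts, AngII over baseline, it was 2 with a minimum of 100 CPM, against 4, since fewer members were counted. In SMCs, CNC over SHF, it was 0 with a minimum of 100 CPM and 2 with none, against 1. In fibroblasts, CNC over SHF, it was 1 with doublets kept and 1 without cycling cells (chosen after seeing the data), against 0. Counts of the lists moved too: for AngII over baseline in SMCs, fibril organisers higher ranged from 2 to 7 and lower from 3 to 10, breakdown genes higher from 1 to 5, and other collagens higher from 2 to 5 and lower from 1 to 6; in fibroblasts, processing genes higher ranged from 2 to 6 and other collagens lower from 4 to 14; for CNC over SHF in SMCs, fibril organisers lower ranged from 0 to 8. Where not stated, the cause was not tested. Depth limits Col5a3 and Col11a1 in SMCs, with 1 to 53 UMIs per library.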
